A study of Danio rerio with 30 samples.

Results

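The miR-26 family of the zebrafish spleen was described from the 4 rows of a small RNA count table whose names begin with dre-miR-26a or dre-miR-26b and that held any count. These rows were dre-miR-26a-5p, dre-miR-26b, dre-miR-26a-3p and dre-miR-26a-2-3p (dre for Danio rerio, left out of the names hereafter), out of 1591 rows with a count, of which 295 carried zebrafish names. Beyond the need for a count, the choice used names and no measured level, but it was made with earlier results of these data known. Spleens came from adults of strain AB, 100 days after fertilisation, and gave 30 small RNA libraries, 5 in each of 6 groups. The fish had developed as embryos and larvae in water of 24, 28 or 32 °C, and each temperature had LPS fish and control fish. LPS fish had received 2 µl of lipopolysaccharide from Pseudomonas aeruginosa, a bacterial cell-wall component that starts an innate immune response, at 50 mg/ml into the body cavity 12 h before the spleen was taken. The labels give 28 °C for the system that held adults, without saying whether these were the parents or the sampled fish. Whether the control fish were injected is not given in the sources used here. Nor do the labels say that each library of a group was made from a different fish. The p-values therefore reflect the spread among these libraries only, which may be technical.

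MicroRNAs are short RNAs that guide Argonaute proteins to partly matching messenger RNAs and lower their output. In mammals miR-26 is known to repress EZH2, the methyltransferase of the Polycomb complex that places a repressive mark on histones, as well as cell-cycle genes, and its genes lie in introns of the CTDSP phosphatase genes, with which they are made. The 5p strand is the guide strand of miR-26, and the 3p strand of the hairpin is mostly degraded. The RefSeq gene table of the GRCz12tu assembly held 4 zebrafish miR-26 genes, and each lay inside the span of a ctdsp gene: mir26a-1 in ctdsp1, mir26a-2 in ctdsplb, mir26a-3 in ctdspla and mir26b in ctdsp2. The miR-26a-5p row cannot be assigned to one of the 3 miR-26a genes from its name, and the ctdsp and ezh2 transcripts were not measured in these libraries.

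Total counts ran from 199431 to 7584818 per library. Depth went up with temperature: the median total of 10 libraries was 352754 for 24 °C fish, 697494 for 28 °C fish and 1066364 for 32 °C fish. The deepest were a 32 °C LPS library, replicate 5 with 5977392 counts, and a 32 °C control library, replicate 7 with 7584818 counts. They stood apart in miR-26 as well and are called LPS replicate 5 and control replicate 7 below. Together they held 34.7% of all counts but 72.8% of the miR-26a-5p counts and 82.2% of the miR-26b counts. Results that rest on them are given with and without them. The leukocyte families miR-142, miR-150, miR-155, miR-181 and miR-223, which mark the blood cells that fill a spleen, had 18 rows with a count, which made up 0.703 to 3.11% of the counts of a library.

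Both guide-strand rows were abundant and were counted in every library. miR-26a-5p held 581843 counts, ranked 12 of 1591 by total count and 22 by median level, and held 70.6% of the counts of all rows named miR-26. miR-26b held 241206 counts, ranked 25 by total and 42 by median level, and held 29.3%. No library had fewer than 240 counts of miR-26a-5p or 107 of miR-26b, so counting error was small beside the spread between libraries. The rows of the 3p strand held 393 (miR-26a-2-3p) and 264 counts (miR-26a-3p), each in 3 libraries, and did not pass the filter on low counts. Levels below are in CPM, the count of a row relative to the total of its library, with totals corrected by TMM, a method that assumes most rows do not differ.

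**Figure D1:**
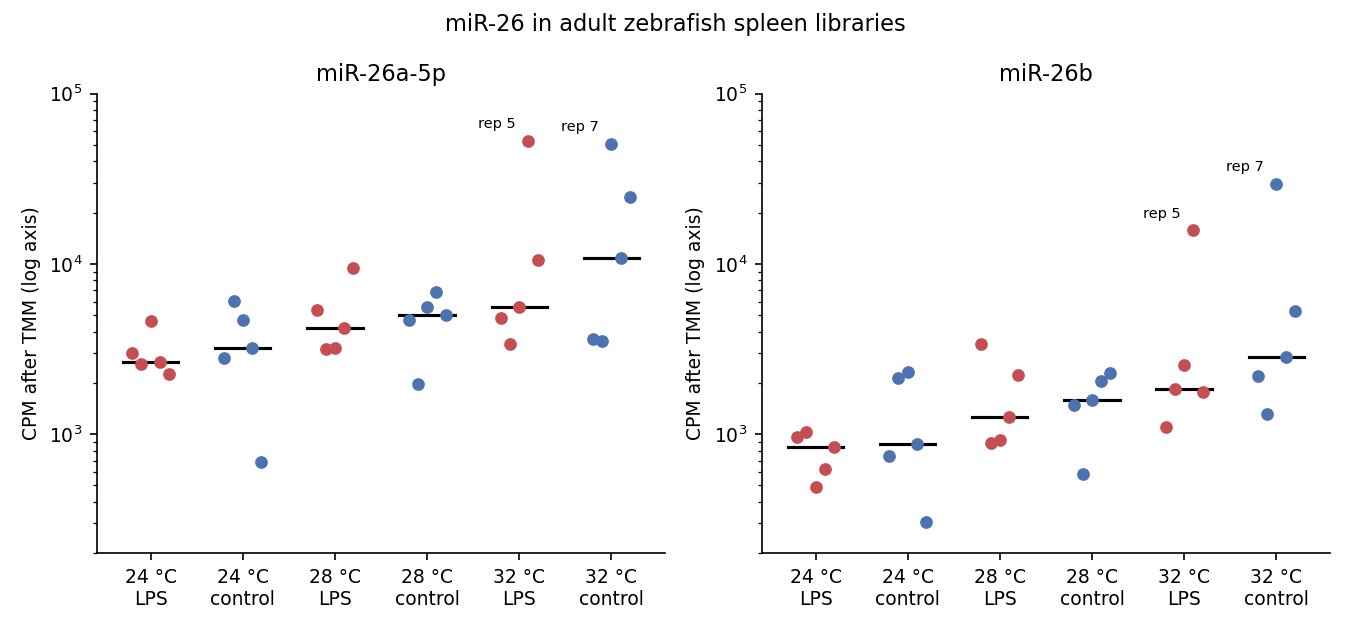
Level of miR-26a-5p (left) and miR-26b (right) in each of the 30 libraries, in CPM on a log axis, by incubation temperature and treatment. Each point is a library and each bar a group median. For both rows the medians increase from 24 to 32 °C, and the points marked rep 5 (32 °C LPS) and rep 7 (32 °C control) lie far above most of their groups.

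At 24 °C miR-26a-5p had 3007, 2598, 4624, 2658 and 2268 CPM in the LPS libraries, against 2785, 6079, 4705, 3193 and 685 CPM in the controls. The LPS libraries lay within the range of the controls, and replicate 9 of the controls was the lowest of all 30 libraries. At 28 °C, the usual rearing temperature of zebrafish, the LPS libraries had 5369, 3171, 3221, 4208 and 9396 CPM, against 4704, 1979, 5552, 6867 and 5013 CPM in the controls. Here too the ranges overlapped, with replicate 8 of the LPS fish above every control. At 32 °C the LPS libraries had 4818, 3386, 5551, 52935 and 10501 CPM, against 3643, 3516, 50690.5, 10773 and 24658 CPM in the controls. At 32 °C the libraries were spread far more widely: 2 of the 5 controls lay below the 28 °C control median and the other 3 above every 28 °C control.

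miR-26b followed at a lower level. At 24 °C it had 957, 1029, 491, 621 and 837 CPM in the LPS libraries, against 739, 2149, 2332, 878 and 305 CPM in the controls. At 28 °C the LPS libraries had 3394, 888, 926, 1259.5 and 2213 CPM, against 1486, 581, 1589, 2061 and 2291 CPM in the controls. The LPS and control ranges overlapped at both temperatures, and replicate 9 of the 24 °C controls was again the lowest library. At 32 °C the LPS libraries had 1099, 1839.9, 2537, 15751 and 1774 CPM, against 2200.5, 1309, 29473, 2841 and 5295 CPM in the controls. In LPS fish the lowest 32 °C library had 1099 CPM and the highest 24 °C library 1029 CPM. How many of all rows had such a gap was not counted, so nothing is read from it. As a share of raw counts these ranges overlapped.

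The 6 groups stood in the same order for both rows when ranked by median CPM. For miR-26a-5p the medians were 2658 (24 °C LPS), 3193 (24 °C control), 4208 (28 °C LPS), 5013 (28 °C control), 5551 (32 °C LPS) and 10773 CPM (32 °C control). For miR-26b they were 837, 878, 1259.5, 1589, 1839.9 and 2841 CPM in the same order. In each of the 5 pairs of neighbours in that order the ranges of the libraries overlapped. Overlap of ranges is not a test, and the order as such was not tested. As a share of raw counts the order of miR-26b was the same, while for miR-26a-5p the 28 °C controls (0.527% of counts) stood above the 32 °C LPS fish (0.507%).

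Libraries from fish incubated at 32 °C held more miR-26a-5p and miR-26b than those from fish incubated at 24 °C. In 24, 28 and 32 °C fish miR-26a-5p averaged 3260.2 ± 1513, 4948 ± 2097 and 17047 ± 19411 CPM, and miR-26b 1034 ± 673, 1669 ± 841 and 6412 ± 9204 CPM (SD over 10 libraries). At 32 °C the SD exceeded the mean. Without LPS replicate 5 and control replicate 7 miR-26a-5p averaged 8356 ± 7240.0 CPM and miR-26b 2362 ± 1321 CPM at 32 °C (n = 8). For each row, 10 of 10 libraries of 32 °C fish exceeded the median of 24 °C fish and 5 of 10 exceeded every one of their libraries. By share of raw counts, without TMM, 8 of 10 (miR-26a-5p) and 9 of 10 (miR-26b) exceeded that median. How many of all rows had such a separation was not counted, so these counts of libraries are not read as particular to miR-26.

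In the edgeR fit of 364 rows both rows rose at 32 °C relative to 24 °C, miR-26a-5p by a log2 difference of 2.38 ± 0.49 (SE) and miR-26b by 2.62 ± 0.56, averaged over LPS and control fish (adjusted p = 0.00123 and 0.00165). These are 5.22-fold and 6.13-fold higher levels. Among all rows tested 16.5% passed in this comparison, 14% as higher, and the median row was itself 0.81 higher, so that miR-26a-5p lay 1.58 and miR-26b 1.81 above the median row. By p the rows stood in places 6 and 8 of 364, while 98 and 89 rows had a larger difference. The biological coefficient of variation was 0.832 (miR-26a-5p) and 0.907 (miR-26b), against a median of 2.03 over all rows. That median is not matched for level, and both rows are abundant. The joint test of any temperature difference passed for both rows (adjusted p = 0.00144 each), as it did for 18.4% of all rows. That call ended for miR-26a-5p and miR-26b with the replicate number as a block (0.0625 and 0.0734), with the log2 library total as a covariate (0.271 each), without the 4 deepest libraries (0.0731 and 0.134) and without LPS replicate 5 and control replicate 7 together (0.0693 and 0.163). For miR-26b it also ended without control replicate 7 alone (adjusted p = 0.0700 in edgeR). That removal also changed the library to which TMM scales all others. With the scaling library held as in the full fit, miR-26b passed without control replicate 7 (adjusted p = 0.0327 in edgeR).

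With LPS replicate 5 left out, the differences between 32 and 24 °C were 1.61 (miR-26a-5p) and 1.87 (miR-26b), with adjusted p = 0.0133 and 0.0154 in edgeR. With control replicate 7 left out, they were 1.60 and 1.51 (adjusted p = 0.0127 and 0.0319). Each removal also changed the library to which TMM scales all others, from replicate 1 of the 24 °C controls to replicate 9 of the 32 °C controls. That change by itself, with all 30 libraries, gave 1.93 and 2.17. When the scaling library was held at replicate 1 of the 24 °C controls, both rows passed, with 1.71 and 1.94 without LPS replicate 5 (adjusted p = 0.0102 and 0.0107) and 1.98 and 1.86 without control replicate 7 (adjusted p = 0.00486 and 0.0137). Without both libraries, where the scaling library did not change, they were 1.28 (adjusted p = 0.0294) and 1.19 (adjusted p = 0.0887), so that the call of miR-26b was lost. The joint removal and the held scaling library were chosen after seeing the data. When the log2 library total, which itself went up with temperature, entered the fit as a covariate, the differences were 1.17 and 1.40 and neither passed (adjusted p = 0.225 and 0.206). With every library thinned to 199431 counts they were 2.15 and 2.39 and both passed (adjusted p = 0.00243 and 0.00283). Random thinning keeps the expected share of each row in its library. It therefore cannot test whether a relation of level with depth is part of the difference.

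Against 28 °C, miR-26a-5p was 1.78 ± 0.48 higher at 32 °C (adjusted p = 0.0333) and miR-26b 1.88 ± 0.54 (adjusted p = 0.0494), where 2.75% of all rows passed and the median row lay 0.83 higher. This comparison uses the same 32 °C libraries as that with 24 °C. Both values lay close to the threshold. With all 30 libraries and replicate 9 of the 32 °C controls as the scaling library they were 1.07 and 1.16 and did not pass (adjusted p = 0.156 and 0.176). The fits without an outlying 32 °C library, which scaled to that library, gave 0.76 and 0.87 without LPS replicate 5, and 0.74 and 0.51 without control replicate 7, and did not pass. With replicate 1 of the 24 °C controls held as the scaling library, miR-26a-5p and miR-26b had 1.099 and 1.21 without LPS replicate 5 (adjusted p = 0.131 and 0.163) and 1.37 and 1.13 without control replicate 7 (adjusted p = 0.124 and 0.176). With each of the 30 libraries as the scaling library, or TMM reference, in turn, miR-26a-5p passed under 9 and miR-26b under 7, with differences from 0.87 to 2.37 and from 0.96 to 2.60. The comparison of 32 and 24 °C passed under all 30 references for both rows, with differences from 1.38 to 3.19 and from 1.70 to 3.50. These references were tried after seeing the data.

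**Figure D2:**
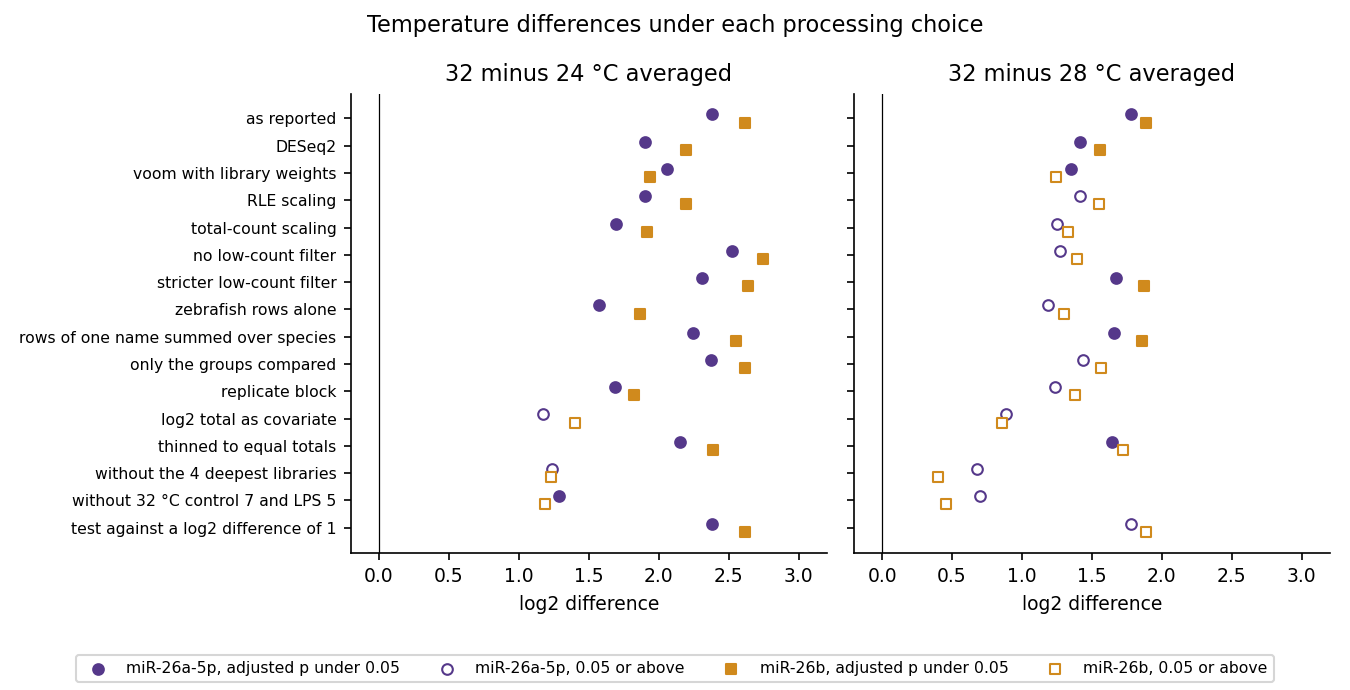
Log2 differences of miR-26a-5p (circles) and miR-26b (squares) between 32 and 24 °C (left) and between 32 and 28 °C (right), averaged over LPS and control fish, as reported and under 15 other choices of tool, scaling, filter, rows, model and libraries. Filled symbols passed at an adjusted p under 0.05. All values lie above zero, and those on the right are mostly open.

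Between 24 and 28 °C miR-26a-5p had a difference of −0.61 ± 0.47 and miR-26b of −0.73 ± 0.53, and neither passed (adjusted p = 0.657 and 0.632, edgeR). Approximate 95% intervals ran from −1.53 to 0.32 and from −1.77 to 0.31. In this comparison 0 of 364 rows passed with edgeR, 55 having an unadjusted p under 0.05, whereas DESeq2 called 35 and voom 5.

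**Figure D3:**
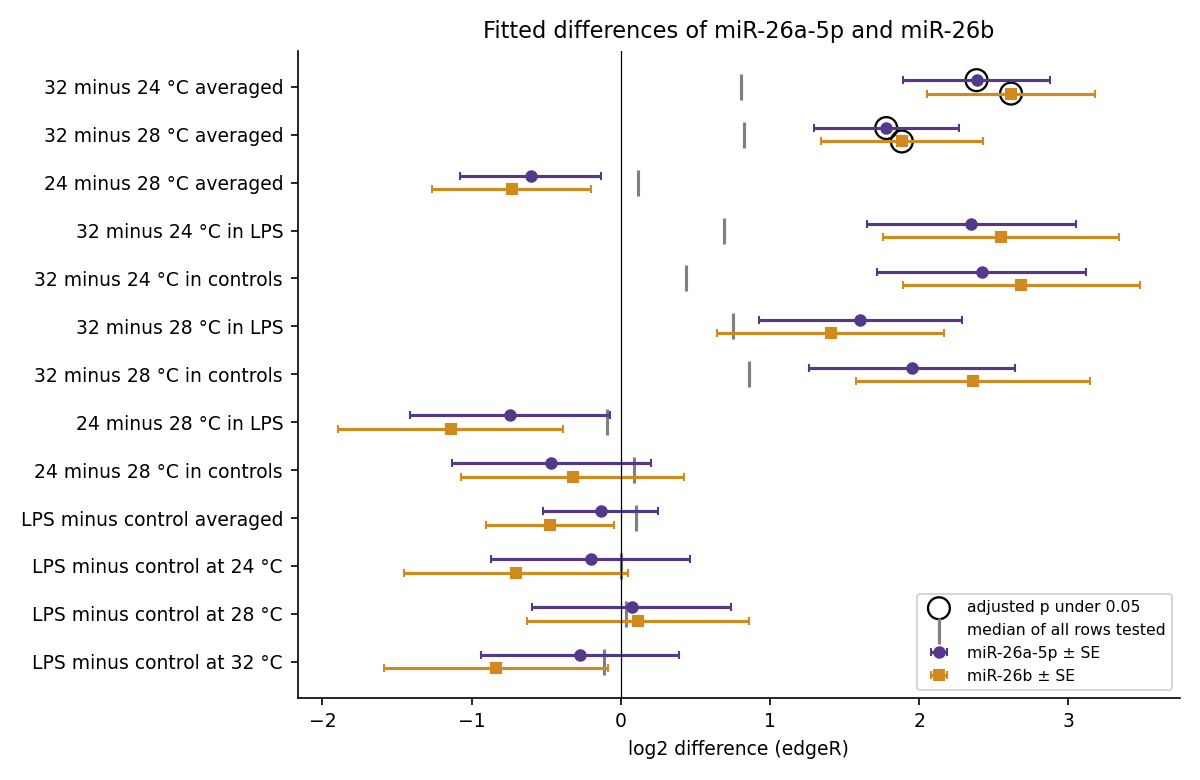
Fitted log2 differences of miR-26a-5p (circles) and miR-26b (squares) with their SE, in edgeR, for temperature averaged over treatments, temperature within LPS fish and within controls, and LPS against control. Circled points passed at an adjusted p under 0.05 and grey ticks are the median of all 364 rows. Points of 32 against 24 °C lie between 2.35 and 2.68 within the treatments, and those of LPS against control lie within 1 of zero.

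Within each treatment both rows had higher fitted levels at 32 than at 24 °C. miR-26a-5p was 2.35 ± 0.70 higher in LPS fish and 2.42 ± 0.70 higher in controls, and miR-26b 2.55 ± 0.79 and 2.68 ± 0.79 higher. With 5 libraries against 5 none of these 4 values passed (adjusted p = 0.0737, 0.0713, 0.0937 and 0.0765 in that order), where 0.549% of rows passed in LPS fish and 0.824% in controls. Without LPS replicate 5 the values in LPS fish were 1.04 (miR-26a-5p) and 1.32 (miR-26b), and without control replicate 7 those in controls were 1.49 and 1.09. With the scaling library held they were 0.9994 and 1.20, and 1.61 and 1.18, in that order. In controls each row did pass under 15 of 48 other choices, DESeq2 and voom among them. These tools called many more rows in that comparison than edgeR, 39 (DESeq2) and 80 (voom) against 3. In LPS fish miR-26a-5p passed under 1 of 48, without control replicate 7 with the scaling library held (adjusted p = 0.0353, edgeR). Likewise miR-26b passed under 2 of 48, that one (0.0361) and DESeq2 (0.0497). In LPS fish DESeq2 called 25 rows and voom 1, against 2 with edgeR. Not every fit with the scaling library held is among the 48. Of all 29 such fits without 1 library, miR-26a-5p passed in 2 and miR-26b in 1 in LPS fish. In controls each row passed in 3 of the 29. For 32 against 28 °C the values of miR-26a-5p were 1.61 ± 0.68 in LPS fish and 1.95 ± 0.69 in controls, and those of miR-26b 1.41 ± 0.76 and 2.36 ± 0.78 (adjusted p from 0.143 to 0.610). Of 45 other choices, 1 gave a call, that of miR-26b in controls with DESeq2 (adjusted p = 0.0493). There 0 rows passed in either treatment with edgeR, although 35 (LPS) and 75 (control) had an unadjusted p below 0.05, while DESeq2 called 8 and 21, and voom 5 and 44. For 24 against 28 °C the 4 values ran from −1.14 to −0.32 and did not pass (adjusted p from 0.696 to 0.950), with 0 rows called in either treatment, 34 (LPS) and 62 (control) at an unadjusted p below 0.05, 14 and 31 for DESeq2, and 6 and 0 for voom.

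No difference of miR-26 between LPS and control fish passed at any temperature. In 24, 28 and 32 °C fish the log2 difference of miR-26a-5p was −0.20 ± 0.67, 0.07 ± 0.67 and −0.27 ± 0.67 (LPS minus control, ± SE). That of miR-26b was −0.70 ± 0.75, 0.12 ± 0.75 and −0.84 ± 0.75 (adjusted p of 0.975 or more for all 6 values, edgeR). Averaged over the temperatures the values were −0.13 ± 0.38 and −0.47 ± 0.43 (adjusted p = 0.947 and 0.817), with approximate 95% intervals from −0.89 to 0.62 and from −1.32 to 0.37, and differences inside these intervals cannot be told apart from none 12 h after LPS. In the averaged comparison 0.549% of all rows passed. At the single temperatures 0 rows passed with edgeR, where 44, 48 and 7 rows (24, 28 and 32 °C) had an unadjusted p below 0.05, DESeq2 called 21, 18 and 1, and voom 0, 4 and 1. The joint test of whether the LPS difference depended on temperature gave an adjusted p of 0.9999 for each row in edgeR's quasi-likelihood test. Of all rows 0 passed it, although 44 had an unadjusted p below 0.05, while DESeq2 called 1 and voom 2. Taken as 32 minus 24 °C, the LPS difference itself differed by −0.07 ± 0.94 (miR-26a-5p) and −0.14 ± 1.06 (miR-26b), as 32 minus 28 °C by −0.35 ± 0.94 and −0.95 ± 1.06, and as 24 minus 28 °C by −0.28 ± 0.94 and −0.82 ± 1.06 (adjusted p of 0.859 or more). In spleen RNA, fewer cells with a miRNA and less of it per cell cannot be told apart.

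miR-26a-5p and miR-26b moved together from library to library. Over the 30 libraries their log2 CPM had a Pearson r of 0.91 and a Spearman rho of 0.85, and r was 0.87 after the means of the 6 groups were removed and 0.82 without the outlying libraries at 32 °C. Both rows share the library, its depth and its scaling. They may also share reads, since how reads matching several rows were divided is unknown. Within the 10 libraries of 24, 28 and 32 °C fish r was 0.74, 0.84 and 0.91. The ratio of their counts does not depend on scaling. Its geometric mean was 3.30, 3.08 and 2.93 miR-26a-5p counts per miR-26b count in 24, 28 and 32 °C fish, and over all libraries it ran from 1.58 (replicate 1 of the 28 °C LPS fish) to 9.42 (replicate 3 of the 24 °C LPS fish), where miR-26b was low and miR-26a-5p was not. The outlying libraries at 32 °C had ratios of 3.36 (LPS replicate 5) and 1.72 (control replicate 7), inside the range of the others, so that both rows were raised in them. By group the geometric mean was 3.87 in LPS and 2.81 in control libraries at 24 °C, 3.08 and 3.07 at 28 °C, and 3.23 and 2.67 at 32 °C, with overlapping ranges.

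**Figure D4:**
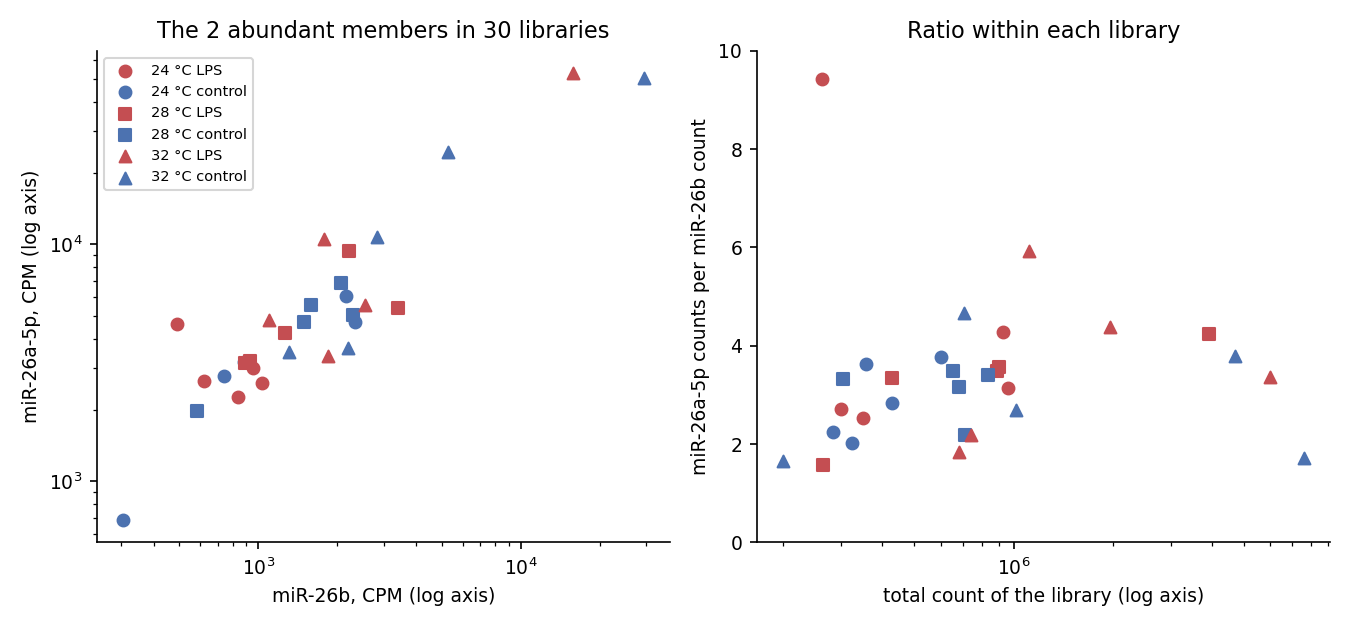
Left, miR-26a-5p against miR-26b in CPM, both on log axes, for the 30 libraries, with shape for temperature and colour for treatment. Right, counts of miR-26a-5p per count of miR-26b against the total count of the library (log axis). The rows rise together on the left, and the ratio on the right lies between 1.58 and 5.92 in all libraries but one, at 9.42.

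Both rows correlated with library depth, largely through LPS replicate 5 and control replicate 7. Pearson r between log2 CPM and the log2 total was 0.65 (miR-26a-5p) and 0.56 (miR-26b) over 30 libraries, and Spearman's rho 0.37 and 0.27. Without LPS replicate 5 and control replicate 7 r was 0.38 and 0.18, so the relation rests largely on them. With totals not corrected by TMM, r over 30 libraries was 0.53 and 0.43, and rho 0.19 and 0.06. Leaving out the outlying libraries then gave r of 0.21 and −0.01. The values that follow are again after TMM. Within 24 °C r was 0.11 and 0.07, within 28 °C 0.15 and −0.20, and within 32 °C 0.70 and 0.62 (n = 10 each). The values within 32 °C include the outlying libraries and were not computed without them. Replicate 1 of the 32 °C LPS fish, with 1960952 counts, had the lowest miR-26b of the 32 °C libraries (1099 CPM). These values describe the libraries, and the total is part of the CPM.

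Among the 43 other zebrafish rows counted in all 30 libraries, the median r of log2 CPM with miR-26a-5p was 0.40. The 5 rows most like it were miR-16b (0.90), of a family known to repress cell-cycle genes, miR-146a (0.85), which NF-κB induces, miR-22a-3p (0.84), miR-143 (0.84), abundant in smooth muscle, and the endothelial miR-126b-3p (0.82). For miR-26b they were miR-143 (0.83), miR-22a-3p (0.81), let-7f (0.79), miR-146a (0.77) and miR-16b (0.76), where the median r was 0.37. After the group means were removed, r lay between 0.62 and 0.84 for these 10 pairs. Without the outlying libraries at 32 °C it lay between 0.53 and 0.80. All of these rows share libraries and scaling with miR-26.

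Summed over their rows, vascular and stromal miRNAs, and those of red cells and thrombocytes, were also high in the outlying libraries. In such sums abundant rows weigh most. In the edgeR fit 8 of 11 vascular and stromal rows had a higher level at 32 than at 24 °C. Of all 364 rows tested 229 did, so this count is not read as particular to the list. The row miR-214 had a lower one (−1.68, adjusted p = 0.336). The 11 counted zebrafish rows of the vascular and stromal families miR-126, miR-143, miR-145, miR-199 and miR-214 made up 7.95% of counts in LPS replicate 5 and 17.1% in control replicate 7. By group this share ran from 1.52 to 2.09% (LPS) and 0.419 to 2.13% (control) at 24 °C, 1.07 to 2.19% and 1.08 to 3.45% at 28 °C, and 1.05 to 7.95% and 1.56 to 17.1% at 32 °C. The 3 counted rows of red cells and thrombocytes (families miR-144, miR-451 and miR-486) ran from 0.151 to 0.495% (LPS) and 0.229 to 1.05% (control) at 24 °C, 0.215 to 0.699% and 0.199 to 1.36% at 28 °C, and 0.112 to 1.79% and 0.180 to 4.71% at 32 °C, the highest values of 32 °C being again those of LPS replicate 5 and control replicate 7. None of the zebrafish rows of these 2 lists was at 0. The part of RNA from these cells in the miR-26 differences was not tested.

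The liver row miR-122 ran from 0.0501 to 0.219% of counts (LPS) and 0.0126 to 0.307% (control) at 24 °C, 0.00380 to 0.743% and 0.0442 to 0.177% at 28 °C, and 0.0283 to 3.86% and 0.197 to 2.86% at 32 °C. It was 0.250% in LPS replicate 5 and 0.952% in control replicate 7. In the edgeR fit it was called higher at 32 than at 24 °C (3.16, adjusted p = 0.00389) and than at 28 °C (2.80, adjusted p = 0.0250). The 6 counted pancreas rows reached at most 0.907% of the counts of any library, the 18 of gut and epithelium 0.584% and the 3 of striated muscle 0.438%, with 9 muscle rows (all 7 of miR-133, miR-206-5p and miR-499-3p), 1 epithelial row (miR-203a-5p) and 1 leukocyte row (miR-181d-3p) at 0 throughout. In 24, 28 and 32 °C fish the leukocyte share was 1.92 ± 0.851, 1.49 ± 0.510 and 1.25 ± 0.359% (SD over 10 libraries), whereas in TMM-scaled CPM the same rows summed to 16476 ± 7367, 14929 ± 5930 and 15300 ± 4772. Between 32 and 24 °C 2 of 11 tested leukocyte rows were called higher and 0 lower, beside 14% and 2.47% of all rows, with a median difference of 0.42. Called higher in that comparison were also 3 of 11 vascular and stromal rows, 1 of 2 of red cells and thrombocytes, 1 of 4 of pancreas, 1 of 8 of gut and epithelium and 0 of 2 of striated muscle, and none was called lower. Between 32 and 28 °C, where 2.2% of all rows passed as higher, 1 of 11 vascular and stromal rows was called higher. None of the leukocyte, red cell, pancreas, gut or muscle rows was. With lists this short nothing is read from these counts. In LPS replicate 5 and control replicate 7 pancreas rows made up 0.0847 and 0.163% of counts, and gut and epithelial rows 0.128 and 0.248%. Muscle rows made up 0.0357 and 0.0839% there, and leukocyte rows 1.02 and 0.816%. The part of RNA from these tissues in the miR-26 differences was not tested.

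Among other miRNAs reported in mammals to repress EZH2, 6 let-7 rows counted at 24 °C were called higher at 32 than at 24 °C. A further 3 such rows were not, and neither of the 2 tested rows of other families was. The list held let-7, miR-98, miR-101, miR-124, miR-138 and miR-214, with 17 zebrafish rows counted and 13 tested. In that comparison none of the 13 passed as lower, and 14% of all rows passed as higher. The let-7 family is known for marking late development, and its closely similar rows may share reads. The rows let-7c-3p and let-7d-3p, counted in 14 and 10 libraries, were at 0 in every 24 °C library. They were called too but entered the test through the warmer groups alone, so nothing is read from their calls. The 6 called rows counted at 24 °C had differences from 0.98 to 1.72, where the median of all rows was 0.81. The 3 let-7 rows that did not pass were let-7b at 0.081 (adjusted p = 0.863), let-7i at 0.87 (0.200) and let-7j at 1.60 (0.0749). let-7f rose by 1.72 ± 0.31 (adjusted p = 0.000287, edgeR) and let-7a by 1.05 ± 0.24 (adjusted p = 0.00375). Over all 13 rows, let-7c-3p and let-7d-3p among them, 8 passed as higher in the reported fit. Of the same rows 6 passed with RLE scaling and 3 with total counts alone, where 41 and 33 of all 364 rows passed as higher. With the log2 library total as a covariate 0 passed, where 1 of all rows was called. With DESeq2 6 passed, without the 4 deepest libraries 6, and with voom 9. DESeq2 called 72 of all rows in either direction and voom 102. These counts are given for their dependence on processing alone. miR-101a was counted in 18 libraries and averaged 115 ± 187, 101.3 ± 208 and 183 ± 277 CPM in 24, 28 and 32 °C fish. miR-214, also in the vascular list, averaged 457 ± 503, 96.7 ± 128 and 111 ± 115 CPM. miR-101b and the 3 rows of miR-138 were too scarce to be tested, 4 rows of miR-124 were at 0, and no zebrafish row of miR-98 was counted. Between 32 and 28 °C 1 of the 13 passed, let-7f (1.14 ± 0.31, adjusted p = 0.0333), where 2.2% of all rows passed as higher. That count was 0 with RLE scaling, total counts, the covariate or without the 4 deepest libraries, 1 with DESeq2 and 5 with voom. DESeq2 called 31 of all rows there and voom 58. For LPS against control averaged over temperatures none of them passed with edgeR, the smallest unadjusted p being that of let-7f (0.111, quasi-likelihood test), and the median was −0.33 beside 0.10 for all rows.

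The 3p strand was counted mainly in the library with most miR-26. miR-26a-2-3p, named for the hairpin of mir26a-2, had 323 counts in replicate 7 of the 32 °C controls, 69 in replicate 1 and 1 in replicate 2 of the 28 °C controls, and 0 elsewhere. miR-26a-3p had 179 counts in replicate 7 and 18 in replicate 8 of the 32 °C controls, 67 in replicate 3 of the 24 °C controls, and 0 elsewhere. In replicate 7 of the 32 °C controls these counts were 0.127% (miR-26a-2-3p) and 0.0703% (miR-26a-3p) of the 254481 counts of miR-26a-5p. In replicate 1 of the 28 °C controls miR-26a-2-3p was 2.20%, and in replicate 3 of the 24 °C controls miR-26a-3p was 2.90%, of miR-26a-5p, far larger shares in far shallower libraries. A count of 0 allows up to 3 counts, which is between 0.00118 and 1.25% of the miR-26a-5p count of a library. Each row was at 0 in 27 libraries. In 11 of them for miR-26a-2-3p and 22 for miR-26a-3p that limit lay above the share seen in replicate 7 of the 32 °C controls, so a count of 0 there also allows that share. In the other libraries at 0 the limit lay below that share, so depth alone does not account for those zeros. LPS replicate 5 was among them for both rows, with 168931 counts of miR-26a-5p and a limit of 0.00178%. All counts of both 3p rows came from control libraries, and no comparison of LPS with control was made from them.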

How the data were processed

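Read counts per miRNA row and library were used as the authors deposited them, in one table of 8866 rows, 1591 with a count, and 30 libraries. Per the labels' protocols, 50 ng of spleen RNA was made into small RNA libraries with 22 PCR cycles. Tools listed without a role in the submitters' processing notes were cutadapt 1.12, DESeq2 1.11.1, FastQC 0.11.5 and bcl2fastq. No aligner, counter, miRNA reference or genome build is given in the sources used here, so how reads matching several rows were divided is unknown. PCR reads are not independent molecules, so limits cover counting error alone.

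Rows were filtered with filterByExpr on the 6 groups (364 left, 2 of the 4 members), scaled with TMM (factors 0.535 to 1.49) and fitted with edgeR 4.0.16 (robust quasi-likelihood, 1 mean per group, 24 residual degrees of freedom), with Benjamini-Hochberg adjustment over all rows and a threshold of 0.05. The common biological coefficient of variation was 1.79. Log2 CPM used a prior count of 2. Alternatives included DESeq2 1.42.0 and limma voom 3.58.1, run under R 4.3.3. The fit was checked on simulated counts. Over 60 pairs of libraries within groups, chi-squared divided by its degrees of freedom was at least 142.5. No pair thus differed by counting error alone. This cannot tell whether 2 libraries were made from the same fish.

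The members, lists and alternatives were chosen with earlier results of these data known, and the TMM references, tried or held, and the joint removal of LPS replicate 5 and control replicate 7 after seeing these fits. Named rows were the members, the 5 rows of highest r with each abundant member and the tested rows of the EZH2 list. Libraries were grouped by title. Replicate numbers occur in several groups, and the labels do not say that they pair fish.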

Additional observations from a re-analysis of the deposited data

Results flagged for a closer look

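Each of the 6 groups of 5 libraries was checked for a library that stood apart. Its gap to its nearest neighbour had to take up more than 0.71 of the range of the group. For normally distributed values chance gives such a gap in about 1 in 20 groups. Levels were checked as CPM and not on a log scale. Over the 32 °C libraries their SD exceeded the mean, so that rate does not hold for them. Replicate 5 of the 32 °C LPS fish stood apart for miR-26a-5p at 52935 CPM, where the next library had 10501, and for miR-26b at 15751 CPM, where the next had 2537. Replicate 7 of the 32 °C controls stood apart for miR-26b at 29473 CPM, with the next at 5295. For miR-26a-5p that library, at 50690.5 CPM, was the highest of its group but did not stand apart by this measure, since replicate 9 had 24658.

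The 3p rows stood apart in some of the libraries where they were counted. Where all other libraries of a group are at 0, any count stands apart, so the chance rate above does not apply. In replicate 2 of the 28 °C controls (miR-26a-2-3p) and replicate 8 of the 32 °C controls (miR-26a-3p) they were counted but did not stand apart. miR-26a-2-3p had 104 CPM in replicate 1 of the 28 °C controls (next 1.30) and 64.3 CPM in replicate 7 of the 32 °C controls (the others at 0). miR-26a-3p had 176 CPM in replicate 3 of the 24 °C controls (the others at 0) and 35.7 CPM in replicate 7 of the 32 °C controls (next 5.49).

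The log2 ratio of miR-26a-5p to miR-26b stood apart at its low end in replicate 1 of the 28 °C LPS fish, at 0.66 with the next at 1.74, and in replicate 7 of the 28 °C controls, at 1.13 with the next at 1.66.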

How the results depend on the processing

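The rise of both rows from 24 to 32 °C held under all 30 fits without 1 library (1.60 to 2.54 for miR-26a-5p, 1.51 to 2.86 for miR-26b) and under most other choices. The miR-26a-5p call was lost with the log2 total as covariate (1.17) and without the 4 deepest libraries (1.23, adjusted p = 0.0518). The miR-26b call was lost with the covariate (1.40), without the 4 deepest (1.23, adjusted p = 0.0917) and without LPS replicate 5 and control replicate 7 together (1.19). The joint temperature test missed the threshold for miR-26a-5p with the replicate block (adjusted p = 0.0625), the covariate (0.271), without the 4 deepest (0.0731) and without those libraries together (0.0693), and for miR-26b likewise (0.0734, 0.271, 0.134 and 0.163). Without 1 library it ran from 0.000543 to 0.0358 and from 0.000543 to 0.0700. With the scaling library held, the joint test passed for both rows in all 29 fits without 1 library, with a highest adjusted p of 0.0176 (miR-26a-5p) and 0.0327 (miR-26b).

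The difference between 32 and 28 °C was fragile: 20 of 30 fits without 1 library lost each call (0.74 to 1.81 for miR-26a-5p, 0.51 to 2.03 for miR-26b), but 24 of these 30 also scaled to another library than the fit of all 30 did. With that library held, 6 (miR-26a-5p) and 7 (miR-26b) of 29 fits lost the call, those without LPS replicate 5 (1.099 and 1.21) and without control replicate 7 (1.37 and 1.13) among them. miR-26a-5p missed the threshold with RLE (1.41), total counts (1.25), no filter (1.27), zebrafish rows alone (1.19), the groups compared alone (1.44), the replicate block (1.24), the covariate (0.89), without the 4 deepest (0.68), against a log2 difference of 1 (1.78), without both outlying libraries (0.70) and at the median TMM reference (1.42). miR-26b missed it with voom (1.24), RLE (1.55), total counts (1.33), no filter (1.39), zebrafish rows (1.30), the groups compared (1.56), the replicate block (1.38), the covariate (0.86), thinning (1.72), without the 4 deepest (0.40), against 1 (1.88), without both libraries (0.46) and at the median reference (1.52). The causes were not tested.

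No LPS difference passed under any choice, and small ones changed sign. For miR-26a-5p at 24 °C the value was 0.15 with voom, 0.082 with total counts, 0.0093 with no filter and 0.54 with the block. At 28 °C it was −0.041 with total counts, −0.21 with no filter, −0.049 with rows of one name summed over species, −0.21 with the covariate and −0.19 without the 4 deepest. Averaged, it was 0.12 with the block and 0.13 without control replicate 7 with the scaling library held, where that of miR-26b was 0.021. Its LPS difference as 24 minus 28 °C was 0.12 with voom, 0.12 with total counts, 0.22 with no filter, 0.012 with summed names and 0.11 without the 4 deepest. For miR-26b the value was 0.11 with the block at 24 °C, and at 28 °C −0.17 with voom, −0.013 with total counts, −0.13 with no filter and −0.048 with summed names. Its LPS difference as 32 minus 24 °C was 0.027 with the covariate, 0.25 without the 4 deepest and 0.0064 without both libraries. Leaving out 1 library gave, for miR-26a-5p, −0.41 to 0.92 (24 °C), −0.21 to 0.23 (28 °C), −1.05 to 0.29 (32 °C) and −0.37 to 0.19 (averaged), and −0.47 to 1.04 (24 minus 28 °C), −1.60 to 0.22 (32 minus 24 °C) and −1.26 to 0.069 (32 minus 28 °C) for the change of the LPS difference. For miR-26b the ranges were −0.82 to 0.50, −0.32 to 0.34, −1.76 to 0.42 and −0.78 to 0.11, and −0.93 to 0.51, −1.71 to 0.83 and −1.82 to 0.10. In LPS fish 32 minus 28 °C of miR-26b ran from −0.038 to 1.45. The rows called between 32 and 24 °C numbered 60, and 1 (covariate) to 102 (voom) under other choices.

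Among libraries of different groups, 43 pairs with the same replicate number had a mean correlation of deviations of 0.0645 (−0.117 to 0.408). For 332 pairs with different numbers it was −0.00831. For 8 pairs of the same number and temperature it was 0.0884 (−0.0718 to 0.325). These means are small but cannot exclude a pairing. With the replicate block 32 rows were called between 32 and 24 °C. The 3p rows, each counted in 3 libraries, were not compared between groups.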

Other observations

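Beside the 4 zebrafish rows, 6 rows named after other species carried miR-26 names and a count. They held 420 counts together, 0.0510% of all counts of rows named miR-26, so nearly all miR-26 reads were placed in zebrafish rows. The row ssa-miR-26a-4-3p, named after Atlantic salmon, held 250 of them in 3 libraries, 149 in replicate 7 of the 32 °C controls. The human and mouse rows of miR-26b-3p held 36 counts each, both in replicate 2 of the 24 °C LPS fish.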
